A study of Mus musculus with 8 samples.

Results

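The 10 genes Grb14, Grb10, Insr, Irs1, Irs2, Irs3, Pde3b, Akt2, Tbc1d4 and Slc2a4 carry insulin signalling from the receptor to the glucose transporter of fat cells, together with an adaptor that restrains the receptor and its relative. They were followed in white adipose tissue of 4 Ad/NICD and 4 wild-type (WT) mice. Ad/NICD mice overexpress the Notch1 intracellular domain (NICD), the part of the receptor that is released on activation and enters the nucleus. All mice were 5 weeks old, of a mixed 129 × C57BL/6 strain, and ate regular chow. The labels name neither the transgene's promoter nor the depot, and they do not state sex or pooling. Each of 4 two-colour arrays carried 1 Ad/NICD and 1 WT sample of the same replicate number.

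The genes were found as the probes whose RefSeq accession belongs to 1 of the 10 symbols. That gave 16 of the 55681 probes, and all 10 genes were among the 25094 gene names tested. Each of the 16 probes was well above background in both colours on all 4 arrays, so the filter on dim probes removed none. The set was put together with this genotype comparison already known, for Grb14 being higher beside lower Insr and Pde3b. Its values are therefore given as a description, without p-values. Where a fit called or did not call a gene of the set, that is stated but is no support for a difference.

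Insulin binds a receptor tyrosine kinase encoded by Insr, which phosphorylates the docking proteins Irs1, Irs2 and, in rodent fat, Irs3. These recruit phosphatidylinositol 3-kinase, whose lipid product leads to activation of the kinase Akt2. In fat cells Akt2 phosphorylates Tbc1d4 (AS160), which releases vesicles that bring the glucose transporter Slc2a4 (GLUT4) to the surface, and the pathway also activates Pde3b, the phosphodiesterase through which insulin lowers cAMP and holds back lipolysis. Grb14 and Grb10 are adaptors of the Grb7 family. Both bind the activated insulin receptor, and Grb14 blocks its kinase as a pseudosubstrate.

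Red over green was read as Ad/NICD over WT, the likely direction, because the Ad/NICD columns of the authors' deposited table follow the red channel and its WT columns follow the green one. The dye tag of each sample says the reverse, which would turn every sign and exchange the 2 genotypes' levels while leaving sizes as they are. No array had its dyes exchanged, so a dye bias of a single probe and genotype cannot be told apart. Median foreground lay between 31 and 40 intensity units in red over a background of 19 to 20, and between 67 and 79 in green over 45 to 46. The number of arrays limits the precision. Log2 ratios correlated between arrays with r of 0.27 to 0.49 over all gene names, except for arrays 1 and 4, at -0.10. Of the adipocyte markers, 18 of 18 were well above background on all 4 arrays in both genotypes. Of 15 skeletal muscle markers, all were so on the 4 arrays in WT, and in Ad/NICD all but Ckm (2 arrays) and Myh2 (3 arrays), which are named for this exception. In bulk tissue, fewer cells of a type and less RNA per cell cannot be told apart. Levels below are log2 signals of 1 probe, which can be set against other samples for that probe but not against other probes. Groups of values run from array 1 to array 4, and an SD or SE is over 4 samples or 4 arrays. For the genes of the set, ± gives the plain SE of the 4 ratios. For every other gene it gives limma's moderated SE, in which the variance is drawn toward a common value of all gene names. The 2 kinds of SE are not comparable.

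Grb14 was higher in Ad/NICD on 4 of 4 arrays, at 2.25-fold the WT level. Its log2 signal was 9.31, 9.97, 9.24 and 10.42 in Ad/NICD samples, against 8.22, 8.64, 8.14 and 9.27 in WT samples. The groups overlapped narrowly, since the WT sample of replicate 4 lay above the lowest Ad/NICD sample, and replicate 4 was the highest in both genotypes. Within arrays the log2 ratios were 1.09, 1.33, 1.10 and 1.15, with a mean of 1.17 ± 0.06 (SE, n = 4). The ratio thus ranged over 0.24 between arrays, while the level itself had an SD of 0.57 in Ad/NICD and 0.52 in WT. Background-subtracted intensity, before any dye correction, was 309 to 1070 in red (Ad/NICD) and 298 to 632 in green (WT). In limma's test over all gene names, 7 were higher at an adjusted p up to 0.05, which is 0.0279% of those tested, and Grb14, for which the set was chosen, is 1 of them. Grb14 was not called without replicate 1, 2 or 3, under median centring of the arrays or with no filter on dim probes, since 0 gene names then passed, and its ratio stayed between 1.11 and 1.19 with any 1 replicate left out. It was also not called in the fits of separate channels, in which its spread between samples enters. Those called 0.845% of gene names higher with the array as a random block and 0.399% with no replicate block. Median centring in place of loess gave Grb14 0.69, while the median of all gene names moved to -0.32.

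The Grb14 promoter is shown because it belongs to the one gene of the set that was higher, in mice that overexpress a nuclear activator. The 300 bases, from 250 before to 50 after the annotated start, are chr2:65022717-65023016 on the minus strand (RefSeq, GRCm38.p6).
Grb14: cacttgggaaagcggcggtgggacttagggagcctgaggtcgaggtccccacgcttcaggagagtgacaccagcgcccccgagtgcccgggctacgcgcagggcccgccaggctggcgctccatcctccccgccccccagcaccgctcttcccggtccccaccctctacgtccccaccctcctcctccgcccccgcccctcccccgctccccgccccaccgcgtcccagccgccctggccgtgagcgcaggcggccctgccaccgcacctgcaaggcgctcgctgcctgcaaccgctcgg
This stretch is 75.3% G and C, against a median of 52.7% over the 32851 promoters of the same table. It holds no match on either strand to GTGGGAA, the core that RBPJ, the DNA-binding partner of NICD, recognises. That motif was found in 6.38% of all promoters of this length. It also holds no match to the FoxO motif GTAAACA (3.65% of promoters) or the E-box CACGTG (7.15%). Only these exact words within these 300 bases were searched, so other forms of a site and more distant sites were not looked for.

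Grb10, the close relative of Grb14, had values near 0 on every array. Its log2 signal was 8.30, 7.93, 8.43 and 7.86 in Ad/NICD samples, against 8.17, 8.04, 8.44 and 7.65 in WT samples. The groups overlapped throughout. The log2 ratios were 0.13, -0.11, -0.01 and 0.21, with a mean of 0.05 ± 0.07 (SE, n = 4). Taken within each array, the Grb14 ratio exceeded the Grb10 ratio by 0.97, 1.44, 1.11 and 0.94. Grb7, the third member of the family, had -0.78 ± 0.33, with -1.06 and -1.86 on arrays 1 and 2 and -0.09 and -0.11 on arrays 3 and 4, and did not pass in limma (adjusted p = 0.351).

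Insr was lower in Ad/NICD on 4 of 4 arrays by each of its 3 probes. The brightest probe had a log2 signal of 8.27, 7.94, 8.16 and 8.27 in Ad/NICD samples, against 8.96, 9.28, 8.85 and 8.78 in WT samples. All Ad/NICD samples lay below all WT samples. The log2 ratios were -0.69, -1.34, -0.68 and -0.51, a mean of -0.81 ± 0.18 (SE, n = 4), or 57.2% of the WT level. The other probes gave smaller ratios in the same direction, -0.36 ± 0.08 and -0.32 ± 0.15, and their groups did not overlap either. These 2 probes were dimmer, at mean log2 signals of 7.08 and 6.77 in Ad/NICD and 7.44 and 7.08 in WT. The offset of 50 added in the background correction pulls ratios of dim probes toward 0. Its part in the smaller ratios of these 2 probes was not tested. Averaging the 3 probes gave -0.50. Array 2 had the lowest ratio of the brightest and of the dimmest probe, and array 4 the ratio nearest to 0 of all 3.

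**Figure D1:**
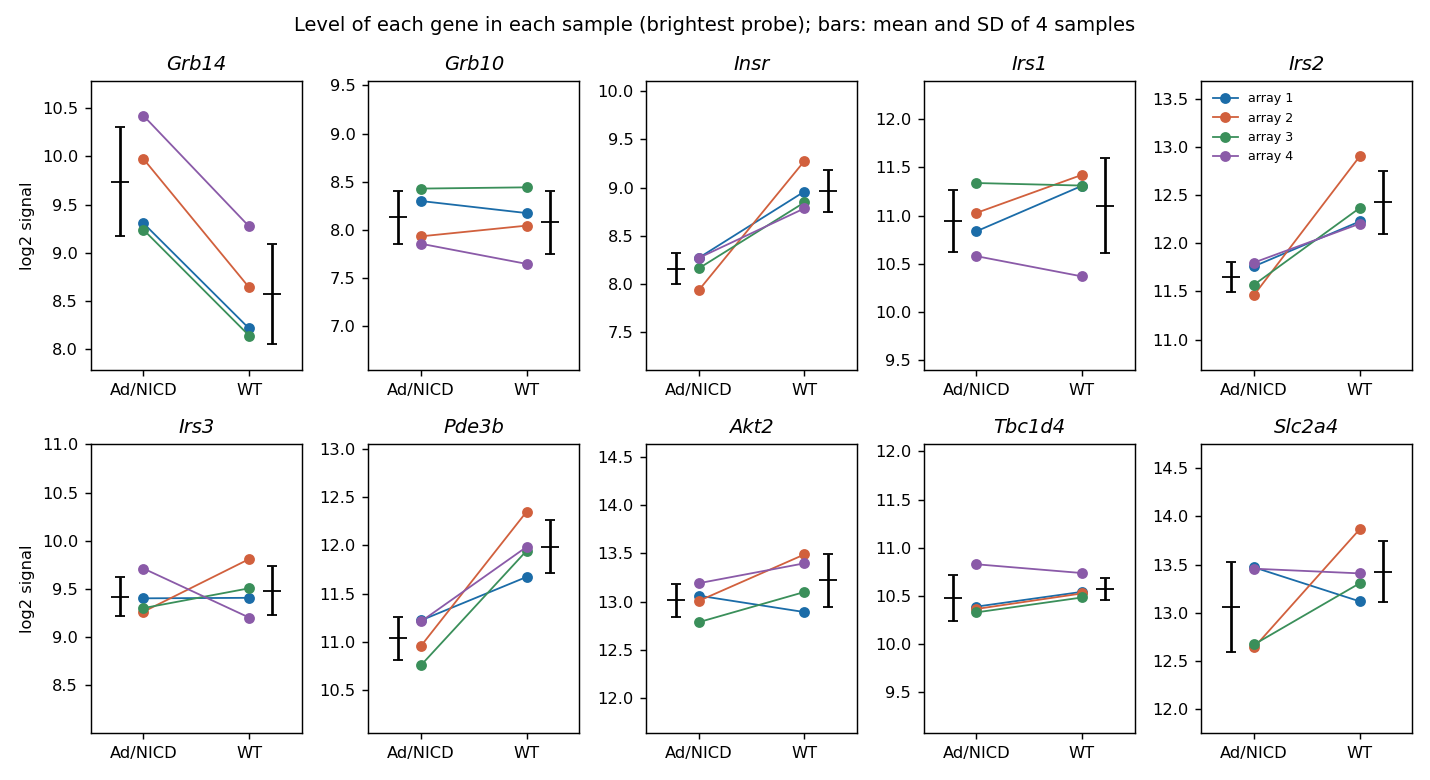
Log2 signal of the brightest probe of each of the 10 genes in the 4 Ad/NICD (left) and 4 WT (right) samples, with a line joining the 2 samples of an array and black bars for the mean and SD. Each panel has its own axis, all of the same height. Grb14 lines run downward to WT on every array, those of Insr, Irs2 and Pde3b upward, and those of Slc2a4 cross.

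Of the receptor's docking proteins, Irs2 was lower in Ad/NICD on 4 of 4 arrays, and Irs1 and Irs3 had ratios of both signs. Irs2 had a log2 signal of 11.76, 11.46, 11.57 and 11.80 in Ad/NICD samples, against 12.23, 12.90, 12.36 and 12.20 in WT samples. The groups did not overlap, and array 2 held both the lowest Ad/NICD and the highest WT sample. The log2 ratios were -0.47, -1.44, -0.79 and -0.40, a mean of -0.77 ± 0.24 (SE, n = 4), or 58.5% of the WT level, and -0.55 without replicate 2. Irs2 was not called on the ratios or in the fits of separate channels. Irs1 had 10.84, 11.03, 11.34 and 10.58 in Ad/NICD samples, against 11.31, 11.42, 11.31 and 10.37 in WT samples. Both samples of array 4 were the lowest of their genotype. Its ratios were -0.47, -0.39, 0.03 and 0.21 (mean -0.16 ± 0.16), and a dimmer second probe had a mean of 0.01 ± 0.08. Irs3, a docking protein of rodent adipocytes, had 9.40, 9.27, 9.30 and 9.71 in Ad/NICD samples, against 9.41, 9.81, 9.51 and 9.20 in WT samples. Its ratios ran from -0.55 on array 2 to 0.51 on array 4, with a mean of -0.06 ± 0.22. Within arrays, the Irs2 ratio was below that of Irs3 on all 4, by 0.46 to 0.91, and below that of Irs1 on arrays 2, 3 and 4, by 0.61 to 1.04, with a difference of 0.01 on array 1.

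The Irs2 promoter is shown because the ratio of Irs2 had the same sign on all 4 arrays, unlike those of Irs1 and Irs3, and because Irs2 is, like Insr, a known target of FoxO factors in liver. It is chr8:11008880-11009179 on the minus strand (RefSeq, GRCm38.p6), with capitals for the E-box CACGTG that begins at position -44 from the start.
Irs2: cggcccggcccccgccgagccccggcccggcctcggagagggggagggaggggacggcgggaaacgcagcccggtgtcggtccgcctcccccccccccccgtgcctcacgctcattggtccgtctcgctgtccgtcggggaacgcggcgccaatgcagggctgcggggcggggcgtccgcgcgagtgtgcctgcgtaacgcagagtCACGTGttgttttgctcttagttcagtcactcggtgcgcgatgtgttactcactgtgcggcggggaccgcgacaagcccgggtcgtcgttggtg
It held no match to the FoxO motif or the RBPJ core. Of the 10 genes 7 had an entry in the promoter table, with 11 promoters in all. Only Irs1, at position -115 from its start, and Irs2 held an E-box, and none of the 11 held either of the other 2 motifs.

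Pde3b was lower in Ad/NICD on 4 of 4 arrays. Its log2 signal was 11.22, 10.96, 10.76 and 11.21 in Ad/NICD samples, against 11.67, 12.35, 11.94 and 11.98 in WT samples. The groups did not overlap. The log2 ratios were -0.45, -1.39, -1.19 and -0.77, a mean of -0.95 ± 0.21 (SE, n = 4), or 51.7% of the WT level. The ratio was nearest to 0 on array 1, and the mean was -1.12 without that array. Of the other phosphodiesterase genes of the list, Pde3a, the second cAMP-degrading enzyme of its class, had 0.34 ± 0.10, Pde4c 0.31 ± 0.07, Pde4b -0.33 ± 0.10 and Pde4d -0.40 ± 0.21. Their adjusted p-values in limma lay between 0.175 and 0.438, and none passed. Other kept probes had 0.05 to 0.07 for Pde3a, -0.21 for Pde4b and -0.28 to 0.15 for Pde4d.

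Akt2, the kinase between the docking proteins and the transporter, had a log2 signal of 13.06, 13.01, 12.79 and 13.19 in Ad/NICD samples, against 12.89, 13.49, 13.10 and 13.40 in WT samples. The groups overlapped, with the Ad/NICD sample higher on array 1 and lower on the other 3 arrays. The log2 ratios were 0.17, -0.48, -0.31 and -0.21, a mean of -0.21 ± 0.14 (SE, n = 4). Its other 2 probes had -0.13 ± 0.11 and -0.29 ± 0.07, and the last of these, the dimmest, was lower on all 4 arrays. The mean was -0.33 without replicate 1 and -0.12 without replicate 2. Within arrays, Insr lay below Akt2 by 0.31 to 0.86 on all 4. Akt1, the isoform found in most tissues, had 0.19 ± 0.06 and was higher on 4 of 4 arrays, without passing (adjusted p = 0.235 in limma).

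Tbc1d4, the Akt2 substrate that restrains vesicle release, differed little. Its log2 signal was 10.39, 10.36, 10.33 and 10.83 in Ad/NICD samples, against 10.54, 10.53, 10.48 and 10.74 in WT samples. The groups overlapped, and replicate 4 was the highest of both. The ratios were -0.15, -0.16, -0.15 and 0.09 (mean -0.09 ± 0.06), and those of a dimmer second probe were -0.36, -0.61, -0.32 and 0.12 (mean -0.29 ± 0.15).

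Slc2a4, the end of this path, had the ratio that varied most between arrays among the 10 genes. Its log2 signal was 13.47, 12.64, 12.67 and 13.46 in Ad/NICD samples, against 13.12, 13.87, 13.31 and 13.41 in WT samples. The groups overlapped: Ad/NICD was higher on array 1, nearly equal to WT on array 4 and lower on arrays 2 and 3. The log2 ratios were 0.35, -1.23, -0.63 and 0.05, with a mean of -0.36 ± 0.35 (SE, n = 4), -0.08 without replicate 2 and -0.60 without replicate 1. This probe is printed 10 times on each array. The SD of the log2 ratio over those spots was 0.03 to 0.06 within an array, against 0.71 between arrays. Of the genes of its vesicles, Lnpep, the aminopeptidase that travels with the transporter, had 0.06 ± 0.06, Sort1, a sorting receptor, -0.45 ± 0.15, and Rab10, the small GTPase that Tbc1d4 acts on, -0.09 ± 0.06. Among other steps of glucose entry, Slc2a1, the transporter of basal uptake, had 0.26 ± 0.10, and Hk2, a hexokinase, had 0.13 ± 0.30, with 1.01 on array 1 and -0.87 on array 2. None of these 5 passed (adjusted p = 0.275 to 0.874 in limma). Other kept probes had -0.72 to -0.13 for Sort1 and -0.15 for Rab10.

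**Figure D2:**
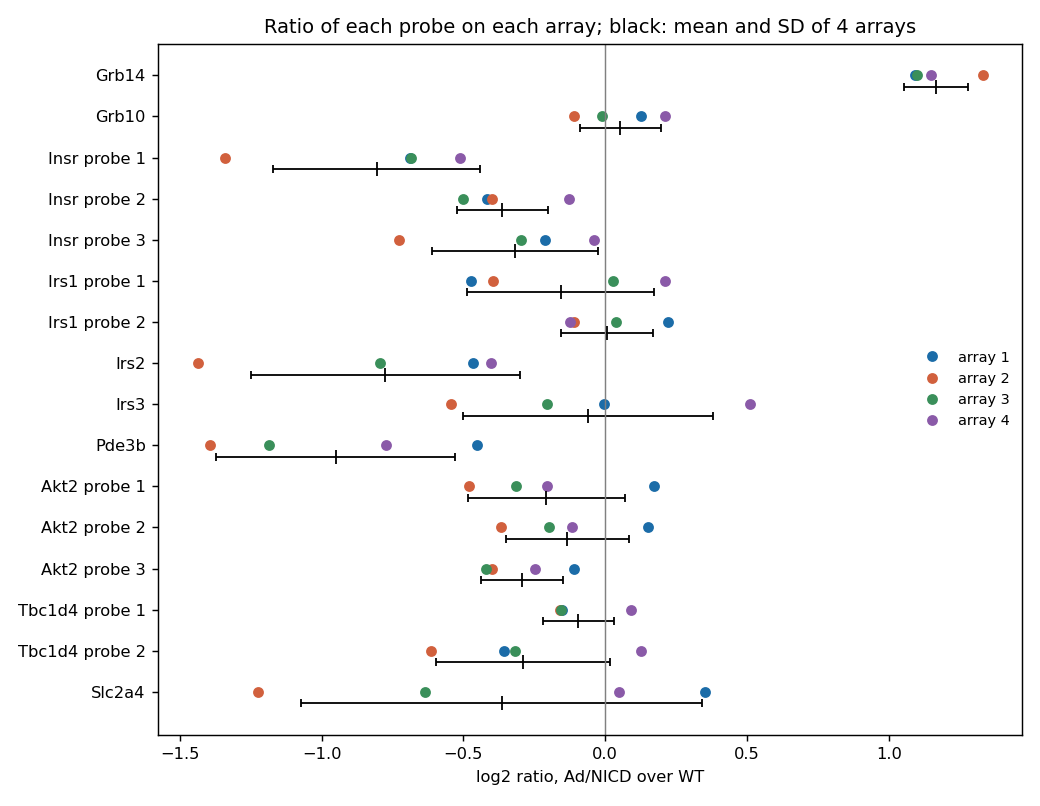
Log2 ratio, Ad/NICD over WT, of each of the 16 probes on each of the 4 arrays (coloured points), with black marks for the mean and SD of the 4 arrays. Probes of 1 gene are numbered from the brightest. The Grb14 points lie together between 1.09 and 1.33, all 3 Insr probes lie below 0, and the Slc2a4 points spread from -1.23 to 0.35.

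Taken as a group, 2 of the 10 genes had a mean ratio above 0 and 8 below, with a median of -0.18, beside -0.01 over all gene names. Of all gene names, 51.6% were below 0. On all 4 arrays the sign was the same for Grb14 (higher, as for 11.1% of gene names) and for Insr, Irs2 and Pde3b (lower, as for 13.3%). Levels did not overlap, with all Ad/NICD samples below all WT samples, for Insr, Irs2 and Pde3b, as for 5.58% of gene names. The reverse was found for 0 of the 10 and for 4.22% of gene names. With the array as a random block Insr and Pde3b were called lower, and both were called lower with no replicate block too. The block fit called 1.98% of gene names in either direction and 1.13% lower, and the fit without it called 0.622% lower. The genes were picked on this comparison, so nothing is read from these shares. Under median centring the ratios of all 10 genes moved down, and Grb10 turned to -0.37, which is -0.05 relative to all gene names.

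The arrays differed in a shared way for most of the genes. On array 2 the ratios of Grb10, Insr, Irs2, Irs3, Pde3b, Akt2, Tbc1d4 and Slc2a4 were at their lowest, and that of Grb14 was at its highest. For Tbc1d4 arrays 1 to 3 were nearly equal (-0.15, -0.16 and -0.15). Irs1 was at its lowest on array 1. Markers of adipocytes moved as well. Their median log2 ratio was -0.77 over 18 genes, with 15 below 0, and was -0.51, -1.29, -1.20 and -0.14 on arrays 1 to 4. Their summed linear signal was 208616 to 380843 in Ad/NICD samples, against 392145 to 567107 in WT samples. The brightest probes weigh most in such a sum, here that of Cfd, at a mean log2 signal of 16.35 in WT. Of these markers Acvr1c, a receptor of the activin family named here after its value was seen, passed in limma on the 4 ratios (adjusted p = 0.0399), and the background is 5 lower gene names, 0.0199%. The markers' part in the lower Insr, Irs2 and Pde3b ratios and in the higher Grb14 ratio was not tested. Skeletal muscle, another tissue rich in Slc2a4, Akt2 and Irs1, had a marker median of -0.94 over 15 genes, 14 of them below 0, with -0.39, -1.55, -0.39 and -2.27 on the arrays. The summed signal of the muscle markers was 3827 to 15447 in Ad/NICD samples, against 5813 to 202084 in WT samples, and 0 of the 15 were below background in a whole genotype. The highest WT sum was that of replicate 4, in which the log2 signal of Myh4 was 15.58, against 9.65 to 11.97 in the other WT samples. The part of muscle in the Slc2a4 values was not tested. Of the other marker lists, the endothelial one had 11 of 11 genes below 0 (median -0.25), and the fibroblast and progenitor one 11 of 11 above 0 (0.39). Brown adipocytes had 4 of 8 above 0 (-0.02), with medians of 0.90, -1.24, -0.13 and 0.11 on arrays 1 to 4. Macrophages had 5 of 10 above 0 (0.01), with -0.62, 0.33, -0.02 and 0.55. Mammary epithelium had 8 of 8 below 0 (-0.44), with -0.93, -1.35, 0.25 and -0.02. Each of these 8 was at its lowest in replicate 4 of both genotypes. Their summed signal was 715 to 29924 in Ad/NICD samples and 699 to 25800 in WT samples. None of the genes of these other lists passed in limma on the 4 ratios. With the array as a random block, the fit in which Insr and Pde3b were called lower, 4 adipocyte markers were called lower (Acvr1c, Adig, Adrb3 and Retn) and so was the endothelial marker Cldn5. These 5 are named after their values were seen. The fibroblast median was -0.47, 0.56, 0.17 and 1.31 on the arrays. The part of these cell types in the 10 genes' values was not tested.

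**Figure D3:**
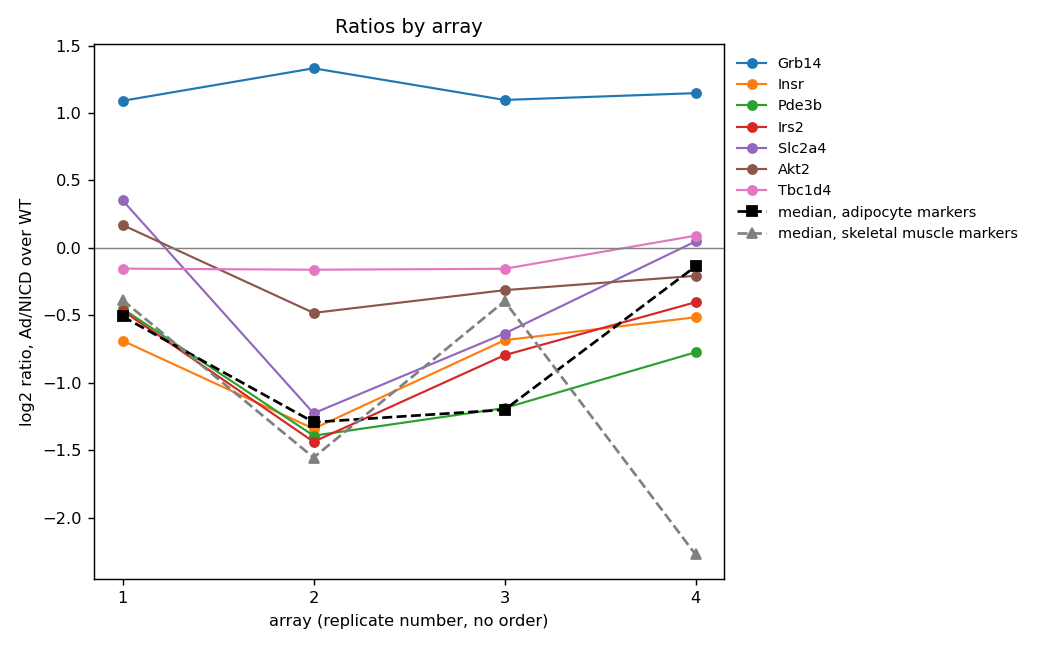
Log2 ratio, Ad/NICD over WT, on each of the 4 arrays for 7 of the genes (solid lines, which only join the values of 1 gene) and the median ratio of 18 adipocyte and 15 skeletal muscle markers (dashed lines). Insr, Irs2 and Slc2a4 are at their lowest on array 2, where the adipocyte median is -1.29. Grb14 lies above 1 on every array.

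The rest of the insulin pathway was followed with 155 further genes in 10 lists by role, 153 of them measured. In limma's test on the 4 ratios 0 passed, in a comparison where 0.0478% of all gene names did. An unadjusted p under 0.05 was found for 27 of the 153 (17.6%), 10 higher and 17 lower, beside 15.2% of all gene names. The median ratio was -0.05, with 63 above 0 and 90 below, beside -0.01 over all gene names. The share below 0 was 58.8%, beside 51.6% of all gene names. With the array as a random block, 3 of the 153 passed, beside 1.98% of all gene names. Of the 3, 1 was higher and 2 were lower, beside 0.845% and 1.13% of all gene names. That count is near the share of all gene names, so nothing about the pathway is read from it.

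These 3 genes lie in different branches. Ppp1r3d, a subunit that brings protein phosphatase 1 to glycogen, had a log2 signal of 11.22, 11.21, 11.03 and 11.52 in Ad/NICD samples, against 9.99, 10.51, 9.93 and 10.41 in WT samples. All Ad/NICD samples lay above all WT samples, and the ratio was 1.03 ± 0.10 (limma's moderated SE, n = 4 arrays). This 2.05-fold difference was positive on 4 of 4 arrays (adjusted p = 0.0168 with the block and 0.0968 on the ratios, limma). Pik3cb, the beta catalytic subunit of phosphatidylinositol 3-kinase, had 8.57, 8.26, 8.29 and 8.58 in Ad/NICD samples, against 9.12, 9.47, 9.15 and 9.15 in WT samples. Again the groups did not overlap, with a ratio of -0.80 ± 0.13, lower on 4 of 4 arrays (adjusted p = 0.0169 with the block and 0.129 on the ratios, limma). Rps6kb1, the S6 kinase downstream of mTOR, had -0.34 ± 0.08 and was lower on 4 of 4 arrays (adjusted p = 0.0459 with the block and 0.172 on the ratios, limma). Its 2 other kept probes had -0.14 and -0.09. With channels fitted separately and no replicate block, Ppp1r3d and Pik3cb passed (adjusted p = 0.0314 and 0.0269, limma), and Rps6kb1 did not (0.0700). That fit called 0.399% of all gene names higher and 0.622% lower.

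By role, none of the following passed on the ratios or with the random block, and values are given without a direction being claimed. Among receptors and ligands (8 measured, median 0.02), the related receptor Igf1r had -0.32 ± 0.09 and Igf2r, which clears Igf2, had 0.25 ± 0.07, each with the same sign on 4 of 4 arrays. Igf2 had 0.04 ± 0.06 and Ins2 -0.02 ± 0.06. Their mean log2 signals were low, at 6.26 and 6.58 in Ad/NICD and 6.21 and 6.60 in WT. At such signals the offset of the background correction pulls ratios toward 0, so a difference could be missed. Among receptor inhibitors and phosphatases (17 measured, median -0.08), the adaptor Sh2b3 had -0.29 ± 0.07 and the phosphatase Ptpn2 0.22 ± 0.07. The other 2 kept probes of Ptpn2 had 0.06 to 0.11. Ptpn1, the phosphatase best known to act on the insulin receptor, had -0.14 ± 0.08 on its brightest probe and 0.07 to 0.14 on the other 2. Enpp1 had -0.11 ± 0.07, Trib3, a pseudokinase that binds Akt, -0.10 ± 0.10, Socs1 0.37 ± 0.16 and Socs3 -0.13 ± 0.13. The Enpp1 probe was as dim, at 6.16 in Ad/NICD and 6.27 in WT, and in red it was well above background on 3 arrays only.

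Among adaptors and the Ras branch (19 measured, median -0.06), the adaptor Sh2b1 had -0.16 ± 0.06 and Grb2, which links receptors to Ras, 0.11 ± 0.10. Grb2 had 0.01 on its other kept probe. Of phosphatidylinositol 3-kinase, its antagonists and Akt (18 measured, median 0.03), the regulatory subunit Pik3r2 had 0.36 ± 0.11, Pik3r1 0.08 ± 0.22, with -0.76 on array 4 alone, and Inpp5k -0.19 ± 0.08. In the mTOR list (14 measured, median -0.05), Eif4ebp1, the translation repressor that mTOR switches off, had -0.75 ± 0.12 and was lower on 4 of 4 arrays (adjusted p = 0.129 on the ratios and 0.0594 with the block, limma). Deptor had 0.18 ± 0.16 and Eif4ebp2 0.04 ± 0.10.

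In the FoxO and glycogen list (12 measured, median -0.05), the transcription factor Foxo1 had 0.11 ± 0.08. Glycogen synthase Gys1 had -0.54 ± 0.18, the liver-type phosphorylase Pygl -0.81 ± 0.33 and the targeting subunit Ppp1r3b 0.74 ± 0.32, with 1.80 on array 1 and -0.03 on array 2. Other kept probes had 0.23 for Foxo1 and -0.59 for Gys1. Of genes that FoxO factors induce (13 measured, median -0.22), 9 were below 0, or 69.2%, beside 51.6% of all gene names. Pck1, which also feeds glycerol synthesis in fat, had -1.17 ± 0.20 and Txnip, an inhibitor of glucose uptake, -0.60 ± 0.15, both lower on 4 of 4 arrays (adjusted p = 0.130 and 0.189, limma). Cdkn1b had 0.15 ± 0.06 and Cited2 0.10 ± 0.06. Other kept probes had -0.56 for Txnip and -0.17 for Cited2. In Slc2a4 vesicle traffic (29 measured, median -0.05), Ralgapa2, a subunit of the complex that holds RalA inactive, had -0.65 ± 0.17, Snap23 0.33 ± 0.14 and Cltc 0.25 ± 0.08. Other kept probes of these genes had -0.27 for Ralgapa2, 0.001 for Snap23 and 0.04 for Cltc. In glucose entry (11 measured, median 0.13), Slc2a8 had -0.23 ± 0.10 and Slc2a10 0.25 ± 0.13. The phosphodiesterase list had a median of 0.02 over 12 genes.

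**Figure D4:**
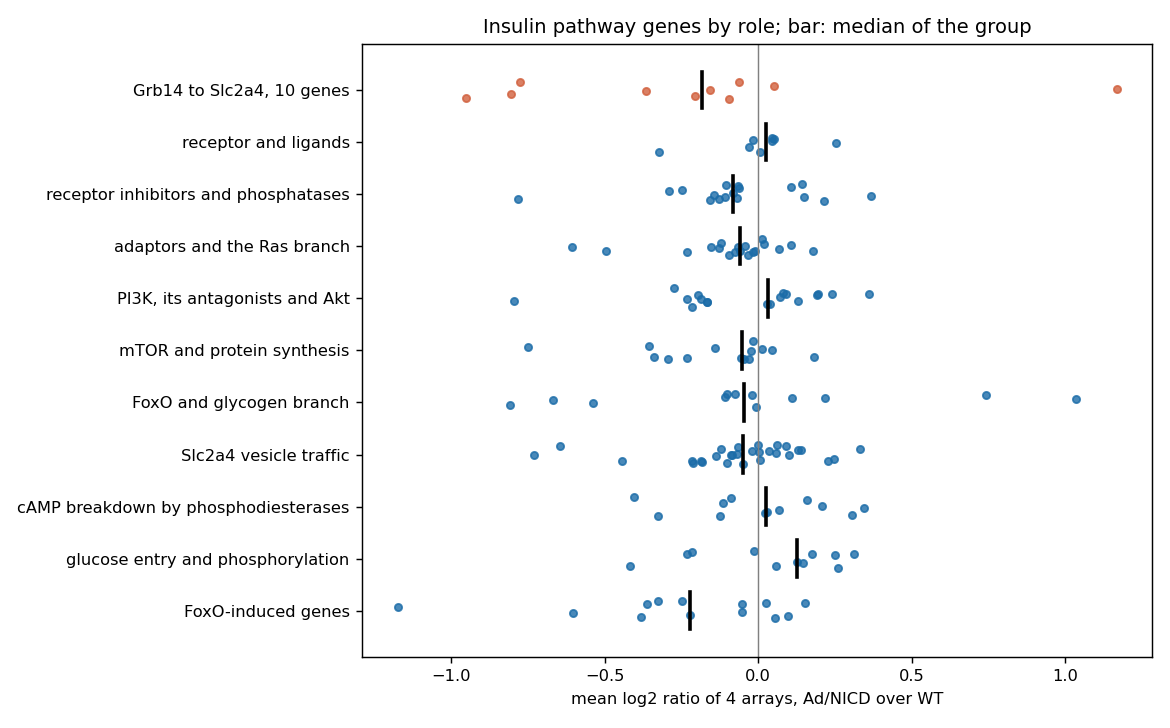
Mean log2 ratio of 4 arrays, Ad/NICD over WT, for the 10 genes from Grb14 to Slc2a4 (top row) and for the 153 other insulin pathway genes by role, each point a gene and each black bar the median of its row. Medians of the 10 lists lie between -0.22 and 0.13, and Ppp1r3d, at 1.03, is the farthest to the right below the top row.

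Among 15824 other genes with a RefSeq symbol, those whose 4 ratios lay nearest to Grb14 were Gdf7, a secreted growth factor, Vtn, which encodes the adhesion protein vitronectin and Rnd3. Their root mean square differences over the 4 arrays were 0.17, 0.18 and 0.18, and their mean ratios were 1.02, 1.16 and 1.08. Nearest to Insr were Gm10638, Hacl1, a peroxisomal lyase of fatty acid breakdown, and Sh3glb1, at differences of 0.06, 0.09 and 0.10. Nearest to Pde3b were 1190005I06Rik, Car5b, a mitochondrial carbonic anhydrase, and Arl4a, at 0.12, 0.13 and 0.14. With 4 arrays, likeness of this kind is a description of these samples.

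Neighbours of Grb14 on its chromosome did not share its ratio. Going by the order of genes in RefSeq and taking those measured, Fign and Gca on one side had 0.17 ± 0.11 and -0.18 ± 0.07, and Cobll1 and Slc38a11 on the other had -0.07 ± 0.14 and -0.12 ± 0.06 (adjusted p = 0.342 to 0.844 in limma). Cobll1, the next measured gene, had -0.17, -0.26, 0.42 and -0.27 on the 4 arrays, against 1.09 to 1.33 for Grb14.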

How the data were processed

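Gene expression in the 8 white adipose samples was measured on 4 arrays of 2 colours. Agilent Feature Extraction 11.5 made the scanner files, per the submitters' processing notes. Deposited columns hold intensity values per spot and channel (median foreground and background, background-subtracted and processed signals), and the deposited log10 ratio and the "well above background" flags, which are other values of 0 or 1, come from the same tables. Tables of same-numbered Ad/NICD and WT samples were identical. The authors' deposited log2 table equals the log2 processed signal of 1 channel minus a constant, with the 75th percentile at 0. Its column medians lie between -3.84 and -3.52, the steps behind it are not stated in the labels, and its Ad/NICD columns follow red. The direction is the likely one for this reason.

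Background was corrected by normexp (offset 50), arrays by loess with control spots at weight 0, and spots of a probe were averaged (limma 3.58.1, R 4.3.3). Of 55681 probes, 28026 matched a RefSeq symbol (GRCm38.p6, names only). Probes well above background in 1 channel or more on at least 3 arrays were kept, and the brightest stood for a gene name. Array 1 lacks the flags, and they were rebuilt from the negative controls by a rule that gave back 97.5% to 100.0% of the scanner's flags on arrays 2 to 4. The 4 log2 ratios were tested against 0 (lmFit, eBayes, Benjamini-Hochberg over 25094 gene names), which is the fit paired by array. Same-numbered samples correlated in their deviations from the group means at 0.18, 0.17, 0.56 and 0.53, the array being what they are known to share. The labels call samples biological replicates. Levels are channel signals after loess and Aquantile scaling. The fit was tested on simulated data. Genes, lists and alternatives were chosen with earlier results of these data known. Genes named are the 10 genes, in each pathway list the 2 of smallest p in each direction, some fixed by name, the 3 nearest in ratio to Grb14, Insr and Pde3b, and the 2 nearest measured neighbours of Grb14 on each side. Some genes that this rule names are not reported here.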

Additional observations from a re-analysis of the deposited data

Results flagged for a closer look

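Among 98 groups of 4 values checked, 10 held a value whose gap to the nearest other, over the group's range, was above Dixon's critical value. That is 10.2%, and chance gives about 5%, or 1 in 20 groups. Among the 10 genes, the Tbc1d4 level of Ad/NICD replicate 4 was 10.83 (others 10.33 to 10.39), its ratio on array 4 was 0.091 (others -0.16 to -0.15), and the Irs1 level of WT replicate 4 was 10.37 (others 11.31 to 11.42). On array 4 the Pik3r1 ratio was -0.76 (others 0.26 to 0.43) and the Igf2 ratio, from a dim probe, 0.0925 (others 0.02 to 0.03). On array 2 the Socs3 ratio was 0.32 (others -0.28 to -0.27) and the Pde4d ratio -1.21 (others -0.25 to -0.05). On array 1 the Snap23 ratio was 0.83 (others 0.10 to 0.20), the Pde3a ratio 0.0347 (others 0.43 to 0.47) and the Cdkn1b ratio 0.10 (others 0.17 to 0.17).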

How the results depend on the processing

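Gene names past the threshold numbered 12, with 256 in separate channels with no replicate block, 496 with the replicate block as a random effect, 3 from processed signals, 3 from the authors' value table, 0 under median centring, 0 with no filter on dim probes, and 0 to 43 with 1 replicate left out. Where limma passed 0, an unadjusted p under 0.05 was found for 3563, 2536 and 1989 gene names without replicates 1, 2 and 3, for 9615 under median centring, and for 5094 of 36799 with no filter. Other pathway genes past the threshold numbered 0, with 2 without the replicate block, 3 with it as a random effect, and 0 under the other alternatives. Median centring in place of loess took the median of all gene names to -0.32. It gave Grb14 0.69, Insr -1.26, Pde3b -1.43 and the other pathway genes a median of -0.50, which are 1.01, -0.94, -1.11 and -0.18 relative to all gene names. Processed signals gave Grb14 1.33 and the authors' values gave it 1.32. Of 130 values of the 10 genes under alternatives, 126 kept their sign, the exceptions being 1 of Grb10 and 3 of Irs3, and 10 moved by over 1 SD. Leaving out 1 replicate gave -0.90 to -0.63 for Insr, -1.12 to -0.80 for Pde3b and -0.06 to -0.04 for the other pathway median. The causes were not tested. The number of arrays and the missing dye exchange limit what the ratios show.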
